A study of Mus musculus with 19 samples.

Results

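The chemokine ligands Ccl3, Ccl4, Ccl5, Ccl17, Ccl19, Ccl22, Cxcl2, Cxcl9, Cxcl10 and Cxcl16 were followed in mouse type 1 conventional dendritic cells (DC1). These 10 genes were chosen by name, each read from its brightest probe set among those annotated to that symbol alone. All 10 had such a probe set among the 19938 genes of the skin-draining lymph node (SDLN) arrays, and 9 had one among the 22180 genes of the spleen arrays. In spleen, Ccl19 was matched only by probe sets that carry several symbols and was not analysed there. The 9 and 10 ligands with a probe set passed the filter on dim signal, and none was dropped.

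The series holds 19 Affymetrix arrays of sorted DC1 in 7 groups, all on a C57Bl/6j background. Of the 11 SDLN arrays, 3 were Batf3-/- Irf8VENUS+ migratory DC1, 2 were WT Irf8VENUS+ migratory DC1, 3 were Batf3-/- Irf8VENUS+ resident DC1 and 3 were WT Irf8VENUS+ resident DC1. The 8 spleen arrays, from female mice, were 3 from the Batf3-/- Irf8VENUS+ group, 3 from the WT Irf8VENUS+ group and 2 from the WT Irf8VENUS- group. Irf8VENUS is a fluorescent reporter of the transcription factor gene Irf8, and Batf3 encodes a transcription factor needed for normal DC1 development. Every SDLN group and both spleen genotypes compared thus carried the reporter, while the spleen Irf8VENUS- group did not. SDLN cells came from inguinal, cervical and brachial nodes in 1 preparation. They were sorted as CD24-positive, CD172-negative dendritic cells, with migratory cells gated as MHCIIhi CD11cint and resident cells as MHCIIint CD11chi. The spleen protocol in the labels writes the DC1 gate as CD172a-positive, the opposite of the SDLN gate and of the usual DC1 gate. Sirpa, the gene of CD172a, had mean log2 intensities of 5.63 in spleen Batf3-/- Irf8VENUS+, 5.49 in WT Irf8VENUS+ and 5.61 in WT Irf8VENUS- cells. In the same order, the DC1 marker Xcr1 had means of 10.25, 10.66 and 11.18, and Tlr3 of 10.68, 11.08 and 10.88. Which gate was used was not tested, so the cells that the spleen values describe are uncertain to that extent. Per the labels, replicate 3 of both spleen Irf8VENUS+ groups was sorted on CD24 without XCR1. The labels give no ages and do not state whether replicate arrays were separate animals, so a p-value here rests on array-to-array spread that may be technical in part.

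Chemokines are small secreted proteins that draw leukocytes along a gradient through G protein-coupled receptors. Migratory DC1 carry antigen from the skin to the node and arrive mature, while resident DC1 develop in the node from blood-borne precursors. Dendritic cells use chemokines to bring T cells into contact with the antigen they present. CCL17 and CCL22 bind CCR4, found on regulatory and helper T cells, and CCL19 binds CCR7, which guides mature dendritic cells and naive T cells within nodes. CXCL9 and CXCL10 bind CXCR3 on effector T cells and NK cells, and CXCL16, a membrane-anchored ligand, binds CXCR6. CCL3, CCL4 and CCL5 are inflammatory ligands that draw monocytes and T cells, and CXCL2 attracts neutrophils through CXCR2.

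The promoters of the 4 ligands called between genotypes are shown, with that of Cxcl10, the neighbour of Cxcl9, so that ligands that moved together or apart can be set side by side. RefSeq entries on the build GRCm38.p6 were found for 7 of the 10 ligands, without entries for Ccl4, Ccl5 and Cxcl16. Each line gives the 250 bases before the annotated start, 5′ to 3′ on the gene's strand. Capitals mark a kappa-B-type motif (GGGNNNNTCC), an AP-1 motif (TGANTCA), an interferon-stimulated response element (ISRE, GAAANNGAAA) or a gamma-activated site (GAS, TTCNNNGAA), searched on both strands.
Ccl17 (chr8:94810203-94810452, plus strand): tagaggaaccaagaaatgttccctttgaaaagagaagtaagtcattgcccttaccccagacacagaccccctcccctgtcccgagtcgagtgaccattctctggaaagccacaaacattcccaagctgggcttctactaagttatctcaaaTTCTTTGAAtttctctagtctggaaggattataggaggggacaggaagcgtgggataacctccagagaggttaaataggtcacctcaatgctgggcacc
Ccl22 (chr8:94745434-94745683, plus strand): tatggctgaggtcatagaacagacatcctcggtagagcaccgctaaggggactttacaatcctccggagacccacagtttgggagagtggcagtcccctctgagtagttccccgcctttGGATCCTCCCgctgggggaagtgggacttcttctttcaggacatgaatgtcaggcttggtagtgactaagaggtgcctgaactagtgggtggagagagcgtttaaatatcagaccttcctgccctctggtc
Ccl19 (chr4:42756366-42756615, minus strand): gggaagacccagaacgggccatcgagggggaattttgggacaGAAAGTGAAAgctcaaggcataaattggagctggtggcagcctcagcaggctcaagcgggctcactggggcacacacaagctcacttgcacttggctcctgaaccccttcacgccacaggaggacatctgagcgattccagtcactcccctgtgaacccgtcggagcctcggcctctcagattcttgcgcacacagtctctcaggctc
Cxcl9 (chr5:92328080-92328329, minus strand): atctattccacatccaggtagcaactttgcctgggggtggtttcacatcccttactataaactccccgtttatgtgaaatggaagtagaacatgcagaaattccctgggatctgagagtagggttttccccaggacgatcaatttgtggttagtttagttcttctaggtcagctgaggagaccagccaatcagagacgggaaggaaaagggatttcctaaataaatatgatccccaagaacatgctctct
Cxcl10 (chr5:92348890-92349139, minus strand): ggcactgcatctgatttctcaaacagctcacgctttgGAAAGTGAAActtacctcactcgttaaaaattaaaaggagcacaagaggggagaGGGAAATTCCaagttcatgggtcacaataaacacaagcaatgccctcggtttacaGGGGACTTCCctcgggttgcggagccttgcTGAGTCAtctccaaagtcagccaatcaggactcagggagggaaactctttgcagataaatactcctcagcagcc

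Ccl17 had 1 GAS motif, starting 99 bases before the start, and Ccl22, on the same strand of chromosome 8, had 1 kappa-B motif at 131 bases. Ccl19 had 1 ISRE at 208 bases. Cxcl10 had 2 kappa-B motifs, at 159 and 104 bases, 1 AP-1 motif at 74 bases and 1 ISRE at 213 bases, while these letters were not found in the Cxcl9 window beside it on chromosome 5. Of the promoters not shown, Cxcl2 had 3 kappa-B matches, 2 of which overlapped, and Ccl3 had none of the 4 motifs. Among all 32851 promoters of that table, windows of the same length held the kappa-B motif in 16.5%, the AP-1 motif in 6.75%, the ISRE in 2.98% and the GAS in 7.02%. A match describes the letters and is not evidence of binding.

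The genotype labels were checked on Batf3 itself. Its log2 intensity was 6.02, 5.87 and 6.17 in Batf3-/- migratory DC1, 9.15 and 9.23 in WT migratory DC1, 5.96, 5.76 and 5.50 in Batf3-/- resident DC1, and 8.15, 8.62 and 8.37 in WT resident DC1. In spleen it was 6.35, 5.29 and 7.08 in Batf3-/- Irf8VENUS+ DC1, 9.64, 9.73 and 10.41 in WT Irf8VENUS+ DC1, and 9.69 and 9.42 in WT Irf8VENUS- DC1. Batf3 was thus lower on every Batf3-/- array of a table than on any WT array of it. Of 9 DC1 markers, including Xcr1, Clec9a and Irf8, all had means above the filter level in each SDLN group. Their summed linear intensity was 6740 to 8519 in Batf3-/- migratory, 5501 to 6343 in WT migratory, 18030 to 18487 in Batf3-/- resident and 23341 to 25988 in WT resident DC1. Irf8 was the 1 marker called higher in Batf3-/- than in WT migratory DC1, with log2 means of 11.95 and 10.71. The sum hid lower levels of other markers, given beside Cxcl9 and Ccl17 below. In spleen the summed level of the 8 measured markers was 15322 to 17177 in Batf3-/- Irf8VENUS+, 18314 to 20345 in WT Irf8VENUS+ and 16365 to 16890 in WT Irf8VENUS- DC1. In SDLN the 9 markers were all lower in migratory than in resident cells of both genotypes, while the summed level of 8 maturation markers, including Ccr7 and Fscn1, was 17304 to 25225 in Batf3-/- migratory, 13458 to 15595 in WT migratory, 4390 to 6733 in Batf3-/- resident and 3298 to 4198 in WT resident DC1. The spread of all values on an array was narrower in WT migratory DC1 (SD 1.96 and 2.03) than on the other SDLN arrays (SD 2.07 to 2.23).

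Values are log2 intensities, in replicate order, and a ligand is called higher or lower where limma's adjusted p was under 0.05, with Benjamini-Hochberg adjustment over all 11931 SDLN or 12875 spleen genes tested. Each fold change is a log2 difference with its standard error (SE). Levels of different ligands are not set against each other, because each has its own probes.

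Migration state separated nearly all of the ligands. In Batf3-/- DC1, 5 ligands were higher and 4 were lower in migratory than in resident cells, 9 of 10 in all, beside 36.6% of all genes called in that comparison. In WT DC1, 6 were higher and 3 lower, again 9 of 10, beside 49.2% of all genes. By direction, 14.1% of all genes were higher and 22.6% lower in Batf3-/- DC1, and 16% were higher and 33.2% lower in WT DC1. The groups did not overlap for 10 of 10 ligands in Batf3-/- DC1, beside 46.8% of all genes, and for 9 of 10 in WT DC1, beside 70.3%. The WT counts and the Batf3-/- count without overlap include Cxcl2, which passed the filter on dim signal only through its migratory arrays. Ccl17, Ccl22, Ccl19, Ccl5 and Cxcl16 were higher in migratory cells of both genotypes, and Cxcl9, Ccl3 and Ccl4 were lower in both. Cxcl10 was called in Batf3-/- and not in WT DC1, and Cxcl2 in WT and not in Batf3-/- DC1, although neither gene's change was called different between the genotypes. These fits left out the pairing of Batf3-/- arrays by the code in their titles. With that code as a block, 10 of 10 ligands were called in Batf3-/- DC1, Cxcl2 among them, beside 4664 of 11931 genes. With the SD of each array's values as a term, which tracks the WT migratory group, 5 WT calls were lost with their directions unchanged. The differences of Ccl5 (4.42, adjusted p = 0.0607) and Cxcl2 (2.29, adjusted p = 0.380) stayed near their size without that term, given below, while those of Ccl4 (-1.12, adjusted p = 0.157), Ccl3 (-0.78, adjusted p = 0.645) and Ccl19 (1.08, adjusted p = 0.172) were smaller. The median difference of the 10 ligands was 1.31 in Batf3-/- and 1.70 in WT DC1, beside medians of -0.02 and -0.16 over all genes.

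**Figure D1:**
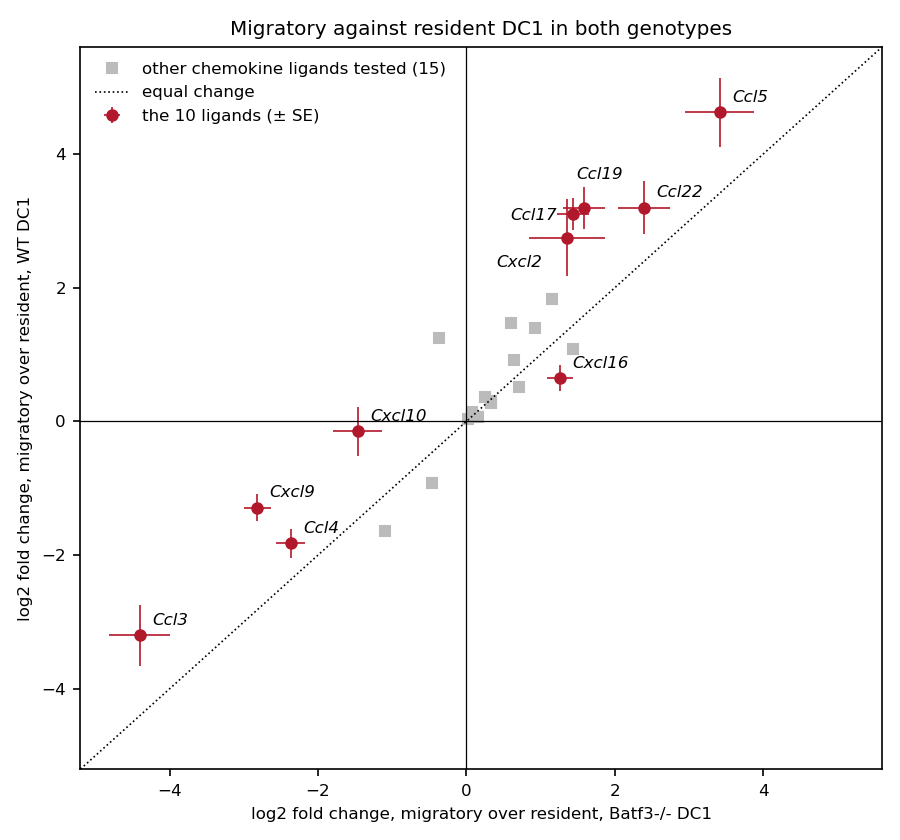
Log2 fold change of migratory over resident DC1 in Batf3-/- cells (horizontal) and WT cells (vertical) for the 10 ligands (red, with SE) and 15 other chemokine ligands (grey squares); the dotted line marks equal change. Ccl5 lies farthest up at 3.41 and 4.62, and Ccl3 farthest down at -4.40 and -3.20.

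Batf3 genotype touched fewer ligands. In resident DC1, 2 of 10 were called between Batf3-/- and WT, both higher (Ccl17 and Ccl22), beside 1.84% of all genes called and 0.847% called higher. In migratory DC1, 2 of 10 were called, both lower (Cxcl9 and Ccl19), beside 9.41% of all genes called and 2.28% called lower. The genotypes did not overlap for 4 of 10 ligands in resident DC1, beside 19.8% of all genes, and for 7 of 10 in migratory DC1, beside 36.6%. The genotype effect itself was called different between migratory and resident cells for 2 of 10, Cxcl9 and Ccl17, both with a lower effect in migratory cells, beside 1.24% of all genes called and 0.52% called lower.

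**Figure D2:**
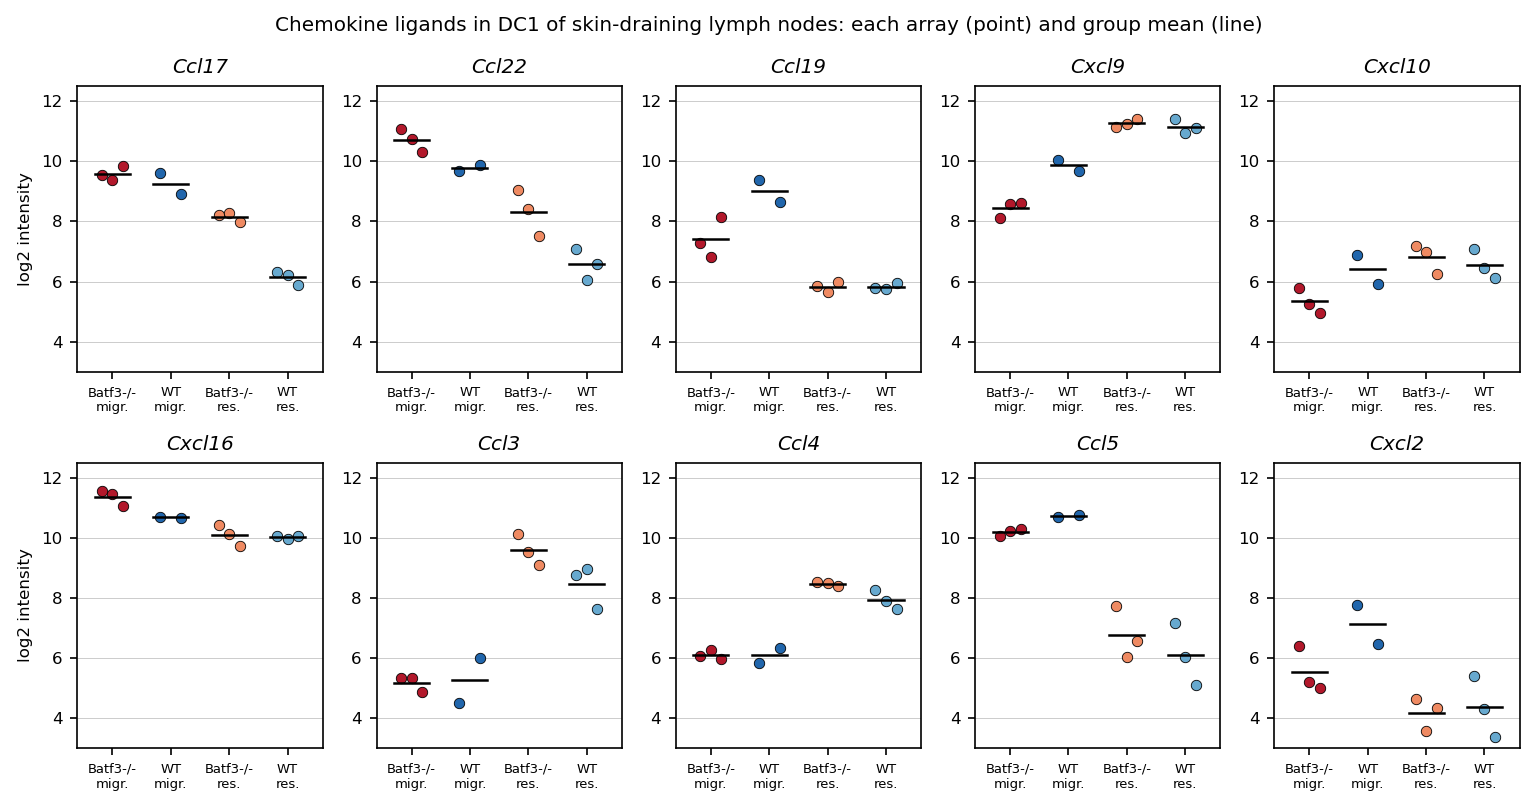
Log2 intensity (vertical) of each of the 10 ligands on every SDLN array (points) with the group mean (line), for Batf3-/- migratory, WT migratory, Batf3-/- resident and WT resident DC1. Ccl17 and Ccl22 step down across the 4 groups from left to right, Ccl19 stands highest in WT migratory cells, and Ccl3 and Ccl4 are high in both resident groups.

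Ccl17 was high in all migratory arrays and differed by genotype in resident ones. Its log2 intensity was 9.54, 9.37 and 9.85 in Batf3-/- migratory DC1, 9.61 and 8.90 in WT migratory DC1, 8.20, 8.28 and 7.97 in Batf3-/- resident DC1, and 6.33, 6.23 and 5.89 in WT resident DC1. The resident groups did not overlap, and every migratory array lay above every resident array. In resident DC1 Ccl17 was 4.0-fold higher in Batf3-/- than in WT cells (log2 2.0 ± 0.21, adjusted p = 0.000247), and within each pair of arrays sharing a title code the difference was 1.87, 2.04 and 2.08. In migratory DC1 the genotypes overlapped (0.33 ± 0.24, adjusted p = 0.370). Migratory over resident, Ccl17 rose by 1.44 ± 0.21 in Batf3-/- DC1 (adjusted p = 0.000186) and by 3.11 ± 0.24 in WT DC1 (adjusted p = 1.45e-06). The genotype effect was smaller in migratory than in resident cells, with a difference of -1.67 ± 0.32 (adjusted p = 0.0363), a call kept without WT migratory replicate 2, Batf3-/- migratory replicate 3 or Batf3-/- resident replicate 3 and lost without any other array (adjusted p up to 0.110).

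Ccl22, the other CCR4 ligand, had the same order of groups. Ccl22 had a log2 intensity of 11.08, 10.74 and 10.31 in Batf3-/- migratory DC1, 9.68 and 9.86 in WT migratory DC1, 9.05, 8.40 and 7.51 in Batf3-/- resident DC1, and 7.09, 6.07 and 6.58 in WT resident DC1. No neighbouring groups overlapped, and Batf3-/- resident replicate 3 stood closest to the WT resident arrays. In resident DC1 Ccl22 was 3.34-fold higher in Batf3-/- than in WT cells (log2 1.74 ± 0.35, adjusted p = 0.0261), with differences of 1.96, 2.33 and 0.93 within title codes. This call was lost when Batf3-/- resident replicate 1 or 2, or WT resident replicate 2 or 3, was left out (1.38 to 1.74, adjusted p 0.104 to 0.143). In migratory DC1 the difference was 0.94 ± 0.40 (adjusted p = 0.137), with 1.40 and 0.88 within title codes. Migratory over resident, Ccl22 rose by 2.39 ± 0.35 in Batf3-/- and by 3.20 ± 0.40 in WT DC1 (adjusted p = 0.000193 and 5.12e-05).

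A few markers of other dendritic cell states were also higher in Batf3-/- resident cells, while most of those tested were not called. Ccr7, the receptor of CCL19 and a marker of maturation, was higher in Batf3-/- than in WT resident DC1 by 1.62 ± 0.31 (adjusted p = 0.0183), the 1 called gene of 8 maturation markers tested. Of 6 tested markers of type 2 dendritic cells, only Clec10a (2.42) and Mgl2 (1.38) were called, both higher. The median of the 6 was 0.10, beside -0.01 over all genes. The summed level of all 8 measured markers overlapped, at 1468 to 1942 in Batf3-/- and 991 to 2617 in WT resident DC1. The summed level of 4 measured Langerhans cell markers did not overlap, at 1646 to 2102 in Batf3-/- and 680 to 835 in WT resident DC1. Cldn1, a tight junction gene and the 1 of them that was tested, was higher (1.35), while the means of Cd207, Epcam and Cdh1 lay under the filter level in all 4 SDLN groups. Of the 9 DC1 markers, Xcr1 (-1.38) and Cadm1 (-1.04) were lower in Batf3-/- than in WT resident DC1 and none was higher. The part of these cells in the Ccl17 and Ccl22 values was not tested. Fewer cells making a transcript and less of it per cell cannot be told apart in RNA from sorted bulk cells, here or for any ligand below.

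Ccl19 was a transcript of migratory cells, at a lower level without Batf3. Ccl19 had a log2 intensity of 7.29, 6.83 and 8.13 in Batf3-/- migratory DC1, 9.39 and 8.65 in WT migratory DC1, 5.84, 5.66 and 5.99 in Batf3-/- resident DC1, and 5.80, 5.74 and 5.94 in WT resident DC1. The resident groups overlapped (0.00 ± 0.29, adjusted p = 1.00), and both migratory groups lay above them. In migratory DC1 Ccl19 was 3.03-fold lower in Batf3-/- than in WT cells (log2 -1.60 ± 0.32, adjusted p = 0.0149). The call was lost without WT migratory replicate 1 (-1.23, adjusted p = 0.136) or Batf3-/- migratory replicate 1 (-1.54, adjusted p = 0.0563), with the SD of each array's values as a term (-0.32, adjusted p = 0.720), and in a fit of the 5 migratory arrays alone (adjusted p = 0.115). Migratory over resident, Ccl19 rose by 1.59 ± 0.29 in Batf3-/- and by 3.19 ± 0.32 in WT DC1 (adjusted p = 0.000824 and 1.05e-05), and the difference between the 2 changes was -1.60 ± 0.43 (adjusted p = 0.0828). The 4 other probe sets of Ccl19, of which 2 held identical values, gave migratory differences between genotypes of -1.76 to -1.78. On the spleen arrays the Ccl19 probe sets list several symbols, so the SDLN signal may include near-identical copies of the gene and is uncertain to that extent.

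Cxcl9 ran the other way, highest in resident cells. Its log2 intensity was 8.11, 8.59 and 8.62 in Batf3-/- migratory DC1, 10.05 and 9.66 in WT migratory DC1, 11.12, 11.25 and 11.39 in Batf3-/- resident DC1, and 11.42, 10.93 and 11.10 in WT resident DC1. The resident groups overlapped, every migratory array lay below them, and the Batf3-/- migratory arrays lay below the WT migratory ones. Cxcl9 was 2.68-fold lower in Batf3-/- than in WT migratory DC1 (log2 -1.42 ± 0.20, adjusted p = 0.00419), with -1.95 and -1.07 within title codes. It was not called with the SD of each array's values as a term (-0.88, adjusted p = 0.206) or in a fit of the migratory arrays alone (adjusted p = 0.0898). In resident DC1 the difference was 0.11 ± 0.18 (adjusted p = 0.987). Migratory over resident, Cxcl9 fell by 2.82 ± 0.18 in Batf3-/- and by 1.29 ± 0.20 in WT DC1 (adjusted p = 2.54e-07 and 0.000262), and the genotype effect differed between the states by -1.53 ± 0.27 (adjusted p = 0.0247). That call was lost without WT migratory replicate 1, WT resident replicate 2 or 3, or any of the Batf3-/- resident arrays (adjusted p up to 0.0952).

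DC1 markers were also lower in Batf3-/- migratory cells, beside the lower Cxcl9 and Ccl19. Of 9, 4 were lower than in WT migratory DC1, the chemokine receptor gene Xcr1 (-1.85), the adhesion gene Cadm1 (-1.17), Tlr3 (-1.20), a sensor of double-stranded RNA, and Clec9a (-0.92), a receptor for dead cells. Irf8 was higher (1.24), and the median of the 9 was -0.55, beside 0.10 over all genes. Cldn1 was higher in migratory Batf3-/- cells as well (1.30). The part of these differences in the Cxcl9 and Ccl19 values was not tested.

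Cxcl10, which shares the CXCR3 receptor, varied more among replicates. Cxcl10 had a log2 intensity of 5.78, 5.27 and 4.97 in Batf3-/- migratory DC1, 6.89 and 5.92 in WT migratory DC1, 7.18, 6.99 and 6.25 in Batf3-/- resident DC1, and 7.09, 6.46 and 6.10 in WT resident DC1. The Batf3-/- migratory arrays lay below all others, and the remaining 3 groups overlapped. In Batf3-/- DC1 Cxcl10 was 2.76-fold lower in migratory than in resident cells (log2 -1.47 ± 0.33, adjusted p = 0.00391), against a WT difference of -0.15 ± 0.37 (adjusted p = 0.763). Between genotypes the migratory difference was -1.07 ± 0.37 (adjusted p = 0.0837), with -1.10 and -0.66 within title codes, and the difference of the genotype effect between the states was -1.32 ± 0.50 (adjusted p = 0.185).

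Cxcl16 was present in every group and higher in migratory cells. Cxcl16 had a log2 intensity of 11.56, 11.45 and 11.05 in Batf3-/- migratory DC1, 10.70 and 10.66 in WT migratory DC1, 10.44, 10.11 and 9.71 in Batf3-/- resident DC1, and 10.07, 9.96 and 10.07 in WT resident DC1. The resident groups overlapped and the migratory groups did not. Migratory over resident, Cxcl16 rose by 1.26 ± 0.18 in Batf3-/- and by 0.65 ± 0.20 in WT DC1 (adjusted p = 0.000124 and 0.0169). The WT call was lost without either WT migratory array or without WT resident replicate 2 (adjusted p up to 0.0862). Between genotypes the migratory difference was 0.67 ± 0.20 (adjusted p = 0.0528), with 0.86 and 0.78 within title codes, and the resident one 0.05 ± 0.18 (adjusted p = 1.00).

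**Figure D3:**
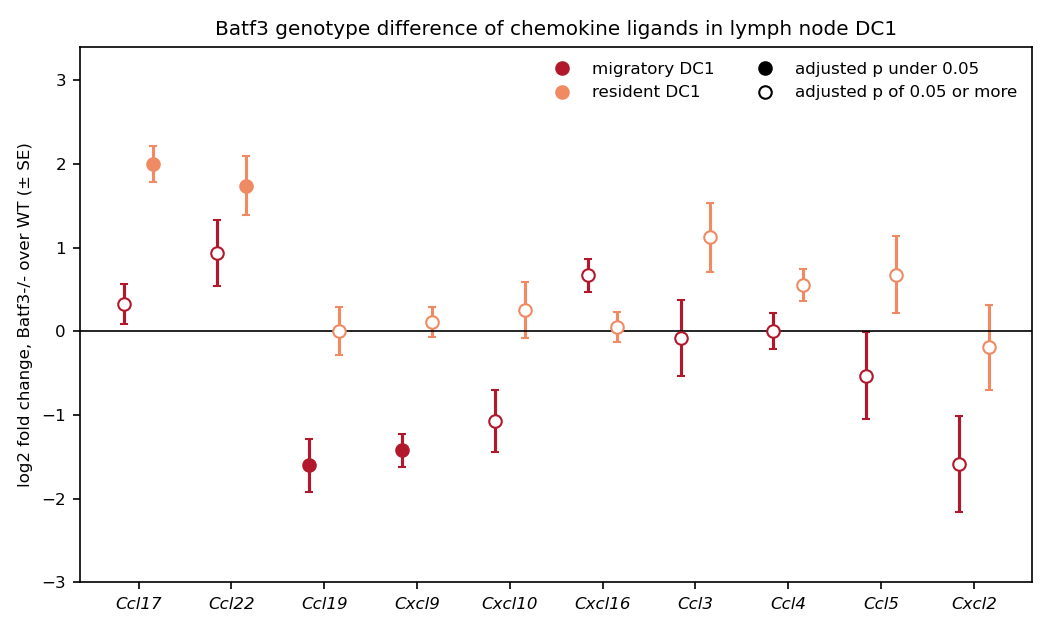
Log2 fold change, Batf3-/- over WT, of each ligand in migratory (dark red, left of each pair) and resident (orange, right) SDLN DC1, with SE bars; filled points have an adjusted p under 0.05. Filled points are Ccl17 (2.0) and Ccl22 (1.74) in resident cells and Ccl19 (-1.60) and Cxcl9 (-1.42) in migratory cells.

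Ccl3 and Ccl4, neighbouring inflammatory ligand genes on chromosome 11, were transcripts of resident cells. The log2 intensity of Ccl3 was 5.33, 5.33 and 4.87 in Batf3-/- migratory DC1, 4.51 and 6.01 in WT migratory DC1, 10.11, 9.53 and 9.10 in Batf3-/- resident DC1, and 8.76, 8.98 and 7.64 in WT resident DC1. No migratory array came within 1 unit of a resident one, and the lowest Batf3-/- resident value lay just above the highest WT one. Ccl3 was lower in migratory than in resident cells by a fitted log2 difference of -4.40 ± 0.41 in Batf3-/- DC1 (adjusted p = 4.83e-06) and of -3.20 ± 0.46 in WT DC1 (adjusted p = 0.000148). WT migratory replicate 1 lay under the filter level of 4.82 and the Batf3-/- migratory arrays close above it, so that no fold is given. With the SD of each array's values as a term the WT difference of Ccl3 was -0.78 (adjusted p = 0.645). Its resident difference between genotypes was 1.12 ± 0.41 (adjusted p = 0.310) and its migratory one -0.08 ± 0.46 (adjusted p = 0.924).

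The log2 intensity of Ccl4 was 6.06, 6.26 and 5.98 in Batf3-/- migratory DC1, 5.84 and 6.35 in WT migratory DC1, 8.52, 8.51 and 8.38 in Batf3-/- resident DC1, and 8.25, 7.88 and 7.62 in WT resident DC1. The migratory groups overlapped, and the Batf3-/- resident arrays all lay above the WT resident ones. Ccl4 fell in migratory cells by 2.37 ± 0.19 in Batf3-/- and by 1.83 ± 0.22 in WT DC1 (adjusted p = 1.58e-06 and 3.48e-05). Its resident difference between genotypes was 0.55 ± 0.19 (adjusted p = 0.261), so that for both genes the separation of the resident groups did not pass the test across all genes. The summed level of 8 macrophage and monocyte markers was 269 to 332 in Batf3-/- migratory, 232 to 285 in WT migratory, 611 to 710 in Batf3-/- resident and 588 to 686 in WT resident DC1. Of these markers Cd68, a lysosomal protein gene that DC1 also express, was the only one with a mean above 6 in resident cells, and the part of such cells in the Ccl3 and Ccl4 values was not tested.

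Ccl5 showed the largest rise with migration in both genotypes among the ligands. Ccl5 had a log2 intensity of 10.06, 10.24 and 10.28 in Batf3-/- migratory DC1, 10.67 and 10.77 in WT migratory DC1, 7.73, 6.03 and 6.58 in Batf3-/- resident DC1, and 7.16, 6.04 and 5.10 in WT resident DC1. The migratory arrays were tightly grouped, while the resident arrays spread over more than 1 unit within each genotype and overlapped between genotypes. Ccl5 was 10.7-fold higher in migratory than in resident Batf3-/- DC1 (log2 3.41 ± 0.46, adjusted p = 9.79e-05) and 24.6-fold higher in WT DC1 (4.62 ± 0.52, adjusted p = 2.43e-05). The migratory groups did not overlap, with a genotype difference of -0.53 ± 0.52 (adjusted p = 0.522), and the resident difference was 0.68 ± 0.46 (adjusted p = 0.819). T cells also make CCL5: 4 of 8 tested T cell markers were higher in WT migratory than in WT resident DC1 and 0 of 8 in Batf3-/- cells. The summed level of the 8 was 507 to 901 in Batf3-/- migratory, 665 to 1360 in WT migratory, 521 to 1014 in Batf3-/- resident and 480 to 508 in WT resident DC1, and its part in the Ccl5 values was not tested.

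Cxcl2 was near the floor in resident cells. Cxcl2 had a log2 intensity of 6.39, 5.21 and 5.00 in Batf3-/- migratory DC1, 7.77 and 6.47 in WT migratory DC1, 4.64, 3.56 and 4.34 in Batf3-/- resident DC1, and 5.42, 4.32 and 3.38 in WT resident DC1. All 3 Batf3-/- and 2 of 3 WT resident arrays lay under the filter level of 4.82. Cxcl2 thus entered the tests only through its migratory arrays, where it was high, and dropped out under a stricter filter on dim genes. Cxcl2 was higher in migratory than in resident WT DC1 by a fitted log2 difference of 2.75 ± 0.57 (adjusted p = 0.00197), which is not a measured ratio because the resident side was near the floor. In Batf3-/- DC1 the difference was 1.35 ± 0.51 (adjusted p = 0.0567). With the title code as a block it passed the test at the same size (adjusted p = 0.00221). Between genotypes the migratory difference was -1.59 ± 0.57 (adjusted p = 0.0914), with -1.38 and -1.25 within title codes, and the 2 migratory groups did not overlap.

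Markers of another lineage moved with the WT migratory arrays. All 6 tested B cell markers were higher in WT migratory than in WT resident DC1, among them Ms4a1 (2.11 ± 0.30) and Cd79a (1.94), and 1 of 6 was higher in Batf3-/- cells. The summed level of 7 B cell markers was 200 to 417 in Batf3-/- migratory, 448 to 549 in WT migratory, 172 to 220 in Batf3-/- resident and 149 to 206 in WT resident DC1. Ms4a1 was also lower in Batf3-/- than in WT migratory DC1 (-1.30). Of 11 stromal markers the summed level was 362 to 469 in Batf3-/- migratory, 419 to 487 in WT migratory, 493 to 542 in Batf3-/- resident and 342 to 364 in WT resident DC1. The part of these cells in the values of Ccl19 and Cxcl2, which were highest in WT migratory DC1, was not tested.

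In spleen DC1 none of the 9 ligands was called between any groups, although differences in the fit were not all small. The median Batf3-/- minus WT Irf8VENUS+ difference of the 9 was 0.53, beside -0.02 over all genes, and that of the 10 ligands between resident SDLN genotypes was 0.40, beside -0.01. Between Batf3-/- Irf8VENUS+ and WT Irf8VENUS+ DC1, 0 of 9 were called, beside 0.738% of all genes. Between WT Irf8VENUS+ and WT Irf8VENUS- DC1, 0 of 9 were called, beside 0.0233%, and between Batf3-/- Irf8VENUS+ and WT Irf8VENUS- DC1, 0 of 9, beside 0.559%. At an unadjusted p under 0.05 these counts were 2, 1 and 1 of 9. The share of all genes at that threshold is not given here, so these counts are not read as a result. Groups did not overlap for 2 of 9 ligands in the first comparison, beside 12.7% of all genes, for 2 of 9 in the second, beside 24.9%, and for 1 of 9 in the third, beside 26.9%. Irf8 RNA also differed between spleen groups with and without the reporter. Its log2 intensity was 12.03 to 12.36 in Batf3-/- Irf8VENUS+, 12.21 to 12.43 in WT Irf8VENUS+ and 11.37 to 11.46 in WT Irf8VENUS- DC1. The part of this difference in the ligand values was not tested.

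**Figure D4:**
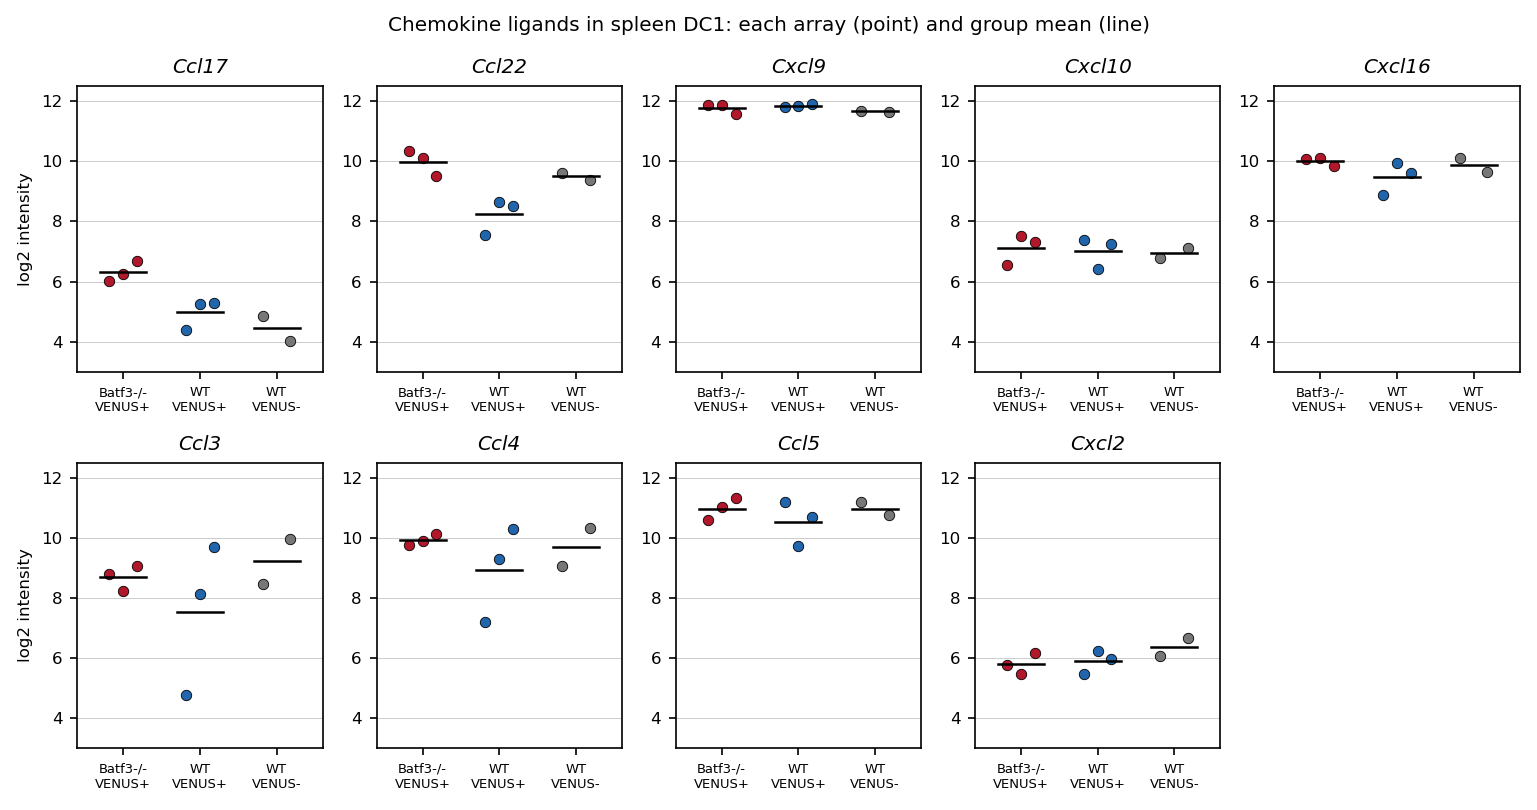
Log2 intensity (vertical) of 9 ligands on every spleen array (points) with the group mean (line), for Batf3-/- Irf8VENUS+, WT Irf8VENUS+ and WT Irf8VENUS- DC1. The Batf3-/- arrays lie above both WT groups for Ccl17 and above the WT Irf8VENUS+ arrays for Ccl22, while Cxcl9 stays between 11.58 and 11.89 on all 8 arrays.

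Ccl17 had a log2 intensity of 6.01, 6.26 and 6.70 in spleen Batf3-/- Irf8VENUS+ DC1, 4.40, 5.24 and 5.30 in WT Irf8VENUS+ DC1, and 4.86 and 4.04 in WT Irf8VENUS- DC1. The Batf3-/- arrays lay above all WT arrays. Against WT Irf8VENUS+ the fitted difference was 1.34 ± 0.27 (adjusted p = 0.0856), with 1.32 among arrays sorted on CD24 and XCR1 and 1.40 between those sorted on CD24 alone. Against WT Irf8VENUS- it was 1.70 ± 0.32 (adjusted p = 0.0834). Both WT Irf8VENUS- arrays and WT Irf8VENUS+ replicate 1 lay under the spleen filter level of 5.04, so these differences are fitted values against groups near the floor.

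Ccl22 had a log2 intensity of 10.34, 10.12 and 9.50 in spleen Batf3-/- Irf8VENUS+ DC1, 7.55, 8.63 and 8.52 in WT Irf8VENUS+ DC1, and 9.60 and 9.39 in WT Irf8VENUS- DC1. The WT Irf8VENUS+ arrays lay below both other groups, which overlapped each other. The fitted difference of Batf3-/- Irf8VENUS+ from WT Irf8VENUS+ was 1.76 ± 0.33 (adjusted p = 0.0639), with 2.14 and 0.98 in the 2 sort gates, and passed the test without WT Irf8VENUS+ replicate 1 (1.34, adjusted p = 0.0143). From WT Irf8VENUS- it was 0.55 ± 0.38 (adjusted p = 0.796), and WT Irf8VENUS+ differed from WT Irf8VENUS- by -1.21 ± 0.38 (adjusted p = 0.521). The summed level of 8 maturation markers followed the same order, at 5506 to 6307 in Batf3-/- Irf8VENUS+, 2249 to 4306 in WT Irf8VENUS+ and 5157 to 5337 in WT Irf8VENUS- DC1. The summed level of 8 type 2 dendritic cell markers was 769 to 861 in Batf3-/- Irf8VENUS+, 456 to 553 in WT Irf8VENUS+ and 451 to 552 in WT Irf8VENUS- DC1, and 1 of 5 tested, Klf4, was higher in Batf3-/- than in WT Irf8VENUS+ DC1 (1.39). Klf4 had log2 means of 8.66 and 7.27 in these 2 groups. The others tested lay closer together, at 7.03 and 6.28 for Cd7, 5.28 and 4.98 for Itgam, 5.63 and 5.49 for Sirpa, and 6.95 and 7.02 for Cd209a. That of 4 Langerhans cell markers was 959 to 1540 in Batf3-/- Irf8VENUS+, 184 to 370 in WT Irf8VENUS+ and 334 to 370 in WT Irf8VENUS- DC1. Of the 2 of these that were tested, Cldn1 was higher (2.73) and Cd207, which encodes langerin, differed by -0.86 without a call (adjusted p = 0.101). Of 8 DC1 markers, Naaa (-1.29) and Cadm1 (-0.90) were lower. The part of these markers in the Ccl17 and Ccl22 values was not tested.

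Ccl3 and Ccl4 were uneven among spleen replicates. Ccl3 had a log2 intensity of 8.78, 8.24 and 9.07 in Batf3-/- Irf8VENUS+ DC1, 4.77, 8.13 and 9.69 in WT Irf8VENUS+ DC1, and 8.47 and 9.96 in WT Irf8VENUS- DC1. WT Irf8VENUS+ replicate 1 alone was near the floor, and it was also the lowest array for Ccl4, at 7.19 against 9.06 to 10.33 on the other 7. The fitted Batf3-/- minus WT Irf8VENUS+ difference of Ccl3 was 1.17 ± 0.89 (adjusted p = 0.715), with 2.06 among arrays sorted on CD24 and XCR1 and -0.62 between those sorted on CD24 alone. For Ccl4 it was 1.00 ± 0.59 (adjusted p = 0.634), with 1.58 and -0.17. Without WT Irf8VENUS+ replicate 1 the differences were -0.05 for Ccl3 and 0.23 for Ccl4.

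The other 5 ligands overlapped between the spleen genotypes. Cxcl9 had a log2 intensity of 11.86, 11.88 and 11.58 in Batf3-/- Irf8VENUS+ DC1, 11.82, 11.83 and 11.89 in WT Irf8VENUS+ DC1, and 11.68 and 11.65 in WT Irf8VENUS- DC1. Its fitted difference between the Irf8VENUS+ genotypes was -0.07 ± 0.10 (adjusted p = 0.842). Cxcl16, Ccl5, Cxcl10 and Cxcl2 differed between them by 0.53 ± 0.27, 0.43 ± 0.34, 0.11 ± 0.32 and -0.08 ± 0.25. Over the 8 spleen arrays, Ccl5 ranged between 9.73 and 11.31, Cxcl16 between 8.88 and 10.12, Cxcl10 between 6.41 and 7.50, and Cxcl2 between 5.45 and 6.66.

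Among other chemokine ligands, 15 of 28 listed genes were tested in SDLN DC1. Migratory over resident, 5 were higher and 1 lower in Batf3-/- DC1, and 8 were higher and 2 lower in WT DC1. Ccl2, which recruits monocytes, fell in migratory cells by 1.10 ± 0.25 in Batf3-/- and by 1.64 ± 0.28 in WT DC1. Cx3cl1, a membrane-anchored ligand of CX3CR1, rose by 1.44 ± 0.26 in Batf3-/- and by 1.08 ± 0.29 in WT DC1. Ccl8 rose by 1.16 ± 0.35 and 1.83 ± 0.40 in the same order of genotypes, and the B cell attractant Cxcl13 by 0.93 ± 0.28 and 1.40 ± 0.31. Cxcl13 also stood on the list of stromal markers, and the part of stromal cells in its values was not tested. Cxcl1, a neutrophil attractant, rose in WT DC1 by 1.48 ± 0.25, and its difference in Batf3-/- DC1 was 0.60 ± 0.23, without a call for the gap between them (adjusted p = 0.192). Between genotypes Cx3cl1 was higher without Batf3 in resident (1.15 ± 0.26) and migratory DC1 (1.52 ± 0.29), and Ccl2 was lower in resident DC1 (-1.23 ± 0.25). The median genotype difference of the 15 was 0.01 in resident and -0.01 in migratory cells, beside -0.01 and 0.10 over all genes.

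Receptors of these ligands were mostly not tested, with 4 of 12 listed past the filter in SDLN DC1. Ccr7 rose with migration by 2.39 ± 0.31 in Batf3-/- and by 3.34 ± 0.35 in WT DC1. Cxcr3, the receptor of CXCL9 and CXCL10, fell by 4.26 ± 0.26 in Batf3-/- and by 3.98 ± 0.30 in WT DC1. Cxcr6, the receptor of CXCL16, and Ccrl2, a non-signalling receptor, were not called in any SDLN comparison.

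Genes that respond to interferon-gamma, as Cxcl9 and Cxcl10 do, did not move as 1 group. Of 9 tested, 3 were higher in Batf3-/- than in WT resident DC1 (Gbp3 0.76, Gbp4 1.02 and Gbp5 1.24, genes of guanylate-binding proteins), and 1 in migratory DC1 (Gbp3 0.87). Migratory over resident, 5 were higher and 3 lower in Batf3-/- DC1, and 4 were higher and 1 lower in WT DC1, with Gbp4 at 1.58 and 3.26 and Ciita, the master regulator of MHC class II, at -2.82 and -3.25. The genotype effect was called lower in migratory than in resident cells for 2 of the 9, Gbp4 (-1.68) and Irgm1 (-1.30). The median of the 9 was -0.29, beside 0.12 over all genes. Cxcl9 and Ccl17 were called lower in the same contrast, but Cxcl9, unlike Gbp4, fell with migration. Of 16 tested genes of NF-kB and interferon signalling, 0 were called between resident genotypes and 4 between migratory ones, all higher in Batf3-/- DC1. These were Relb (1.13), a subunit of the non-canonical NF-kB pathway, the kinase genes Tyk2 (1.49) and Jak2 (0.82), and Irf9 (0.70). Ifngr1, a chain of the interferon-gamma receptor, fell with migration by 3.23 in Batf3-/- and by 2.77 in WT DC1.

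The order of the SDLN groups by mean level shows which neighbours were separated. For Ccl22 and Ccl17 the order from low to high was WT resident, Batf3-/- resident, WT migratory and Batf3-/- migratory, with no overlap between neighbours for Ccl22 and overlap of the 2 migratory groups for Ccl17. For Cxcl9 it was Batf3-/- migratory, WT migratory, WT resident and Batf3-/- resident, with overlap of the resident groups. Ccl19 and Ccl5 were highest in WT migratory DC1, ahead of Batf3-/- migratory DC1 without overlap.

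The genes whose level followed each ligand most closely over the 11 SDLN arrays are given as a description, since the arrays share groups. Ccl22 was followed by Bmp2k (Pearson r = 0.989), Ccr7 (0.987) and Fscn1 (0.985), and Ccl17 by Gca (0.976), Ccdc88a (0.972) and Gbp8 (0.959). Ccl19 was followed by Dbp (0.989), Adipoq (0.987) and Snrnp25 (0.986). Cxcl9 was followed by Vps13c (0.990), Hmgn1 (0.977) and Acer3 (0.976), and Cxcl10 by Sde2 (0.921), Rilpl2 (0.891) and Antxr2 (0.878). Cxcl16 was followed by Tbc1d4 (0.987), Sh3bp4 (0.985) and Zbtb10 (0.985). Ccl3 and Ccl4 both had Slco3a1 among their 3 closest genes (0.976 and 0.992), beside Uhrf1bp1l (0.982) and Me2 (0.978) for Ccl3 and Scimp (0.990) and Tmem131 (0.987) for Ccl4. Ccl5 was followed by Socs2 (0.979), a marker of maturation, with Taf9b (0.975) and Ankrd33b (0.974), and Cxcl2 by Dscam (0.951), Klf5 (0.940) and Lzts2 (0.932).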

How the data were processed

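Biotin-labelled RNA of sorted DC1 was hybridised to 8 spleen arrays of 1 Affymetrix type and 11 SDLN arrays of another. The authors ran RMA (background correction, normalization and probe set summary), per the submitters' processing notes, which give no version here. The deposited spleen values were intensities on a linear scale and were log2-transformed; the deposited SDLN values were already log2. Neither table gives a background per probe, so absence and low signal cannot be separated, and precision is limited by the few arrays. Tables were tested separately.

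Names came from the platform annotation, updated through RefSeq gene IDs (23521 of 41345 spleen and 21789 of 35556 SDLN probe sets had 1 symbol). Genes entered a test when 2 or more arrays were at or above the table's median (5.04 in spleen, 4.82 in SDLN). Tests used limma 3.58.1 in R 4.3.3 (eBayes with a trend, all arrays of a table in 1 fit, the spleen fit with the sort gate as a term). On simulated data the resident genotype fit recovered 80% of 100 genes changed by 1 log2 unit and the spleen genotype fit 47%. Deviations of arrays with the same title code correlated at 0.210 to 0.479 in the 3 pairs of Batf3-/- migratory and resident arrays. The main fit left this pairing out, and an alternative fit took it in with the title code as a block. In no other comparison did every pair exceed 0.1, although the 2 pairs of WT migratory and resident arrays correlated at 0.0971 and 0.147. Marker sums are of linear intensities. The ligands and gene lists were chosen with earlier results of these data known. Named genes were all ligands, at most 4 called genes of another list in a comparison, Batf3 and the 3 most correlated genes of each ligand; other genes named were chosen after their values were seen. Genes on a list but without a single-symbol probe set were not analysed here. Alternatives were other filters, normalizations, weights, priors, probe set rules, blocks and fits leaving out arrays.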

Additional observations from a re-analysis of the deposited data

Results flagged for a closer look

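For Cxcl9 the Batf3 genotype effect differed between migratory and resident SDLN DC1 by -1.53 (log2): in Batf3-/- against WT cells it was -1.42 in migratory and 0.11 in resident DC1. For Ccl17 it differed by -1.67, being 0.33 in migratory and 2.0 in resident DC1. Both passed the test of the difference itself in limma across all genes (adjusted p = 0.0247 and 0.0363). Leaving out 1 array at a time kept both differences negative, between -1.72 and -1.33 for Cxcl9 and between -2.02 and -1.31 for Ccl17, but raised the adjusted p to as much as 0.0952 and 0.110. With the spread of each array's values as a term the differences were -0.93 for Cxcl9 and -1.17 for Ccl17, and neither was called.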

How the results depend on the processing

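Over 77 tests of a ligand in a comparison, 24 were called, and all 24 kept their sign under every alternative run, 13 of them with a call under each. Among tests called neither way, 54 alternative values had the opposite sign. The number of ligands called between spleen Batf3-/- and WT Irf8VENUS+ DC1 was 0, and 1 (Ccl22) with the stricter filter, with quantile normalization again, with array weights and without WT Irf8VENUS+ replicate 1. Between spleen Batf3-/- Irf8VENUS+ and WT Irf8VENUS- DC1 it was 0, and 1 (Ccl17) with array weights and without WT Irf8VENUS+ replicate 1. Between resident genotypes it was 2, and 4 with array weights, which added Ccl3 and Ccl4; leaving out 1 array gave 1 to 2. Between migratory genotypes it was 2, and 0 with only the groups compared (7 genes called in all, against 1123) and 0 with the SD of array values as a term (Cxcl9 -0.88 and Ccl19 -0.32). It was 6 with the replicate block by title code, which added Cxcl10, Cxcl16, Cxcl2 and Ccl22. It was 3 with no filter on dim genes, with the stricter filter and with array weights. Cxcl16 was called in 7 of 21 alternatives of this comparison. Leaving out 1 array of a group of 3 gave 1 to 3. In WT migratory against resident DC1 it was 9, and 4 with the SD of array values as a term. For the difference of the genotype effect it was 2, and 4 with the replicate block, which added Cxcl10 and Ccl19. It was 3 with array weights, 0 with the SD term, and 0 to 3 leaving out 1 array of a group of 3. The replicate block changed no other ligand's call apart from Cxcl2 in Batf3-/- migratory against resident DC1.

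Over all genes, array weights gave 981 calls between resident genotypes against 220, 2294 between migratory genotypes against 1123, and 1110 for the difference against 148. With the block, the last 2 counts were 2464 and 543, and with the SD term 37 and 30. Quantile normalization again gave 659 higher and 525 lower calls, against 851 and 272, between migratory genotypes, 2755 and 2803, against 1903 and 3967, in WT migratory over resident DC1, and 62 and 70, against 86 and 62, for the difference. Why these counts moved was not tested. With 2 or 3 arrays a group, a change of 1 log2 unit could be missed.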
